A study of Arabidopsis thaliana with 16 samples.

Results

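In chromatin of Arabidopsis thaliana seedlings, 179 genes each held several separate regions bound by WRKY proteins, 377 regions in all. They were chosen by the calls themselves: the 14333 peaks of 8 lists were merged on any shared base into 3886 regions, each region took the nearest-promoter gene of its best-ranked peak, and regions called in at least 2 of the 8 lists were kept. Of the 2665 genes with a kept region, 179 (6.72%, 95% Wilson interval 5.83 to 7.73%) held 2 or more, and their regions made up 377 of the 2863 kept regions (13.2%). The other 2486 kept regions belonged to genes with 1 kept region and are the comparison throughout. The 95% intervals given here and below treat genes, regions or site pairs as independent and hold no variation between lists or rules. Because calls in these lists chose the members, numbers of sites, calls and strengths are descriptions. The permutation tests on all 8 lists, given at the end, are no independent support.

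WRKY proteins are a large plant family of transcription factors that bind the W-box, a short promoter element, and act widely in immune responses. The bacterial flagellin peptide flg22 is perceived at the cell surface and sets off pattern-triggered immunity, during which many WRKY genes are themselves induced. W-boxes often lie in clusters, and WRKY proteins are known to bind promoters of their own family.

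The seedlings were 12 days old, either wild type (WT, accession Col-0) or the wrky18 wrky40 wrky33 triple mutant, which lacks 3 WRKY factors of the flagellin response. Each genotype was taken untreated (0 h) and treated, that is after 2 h in medium with 1 µM flg22, with 2 biological replicates in each of the 4 groups, and each of the 8 immunoprecipitations had its own peak list. As untreated seedlings were taken at 0 h only, the peptide, the elapsed time and the change of medium cannot be told apart. The serum is directed at the whole WRKY family, and a site in the mutant can be held by any of the remaining members. Whole seedlings mix many cell types, and no defining marker could be checked in chromatin. The 8 input libraries, used for peak calling per the labels, have no list here. The lists held 1372 to 1720 peaks at 0 h and 1992 to 2213 at 2 h. The median width of all peaks was 525 to 564 bp in the replicate 1 lists and 354 to 385 bp in the replicate 2 lists. The table of WT 0 h replicate 1 lacked 136 of its region numbers, so an absent call there may be an absent row. The read depth behind a call and the scale of the authors' peak score are unknown, and strength is therefore given as the percentile of the score within its own list (100 for the top peak, 0 in a mean where the site was not called). A peak that keeps its rank has a higher percentile in a longer list, so percentiles at 0 h and 2 h are set side by side and no change in strength is read from them.

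Among the 179 genes, 161 held 2 regions, 17 held 3 and 1, AT5G56960, held 4. The genes at the edge of the rule show how thin the line was. Just inside, AT2G36680 had a site called in 7 lists and a second one in 2 lists, with a mean percentile of 17.0, and AT1G17147 likewise had sites in 7 and 2 lists. Just outside, HB30 had a site in 3 lists and another in 1 list, with a mean percentile of 10.7, and AT5G57710 had 1 site in 2 lists beside 2 sites that were each in 1 list. For 73 of the 179 genes the second-strongest region was called in exactly 2 lists, and 116 genes with 1 kept region had at least 1 more region called in a single list.

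The clearest cases were genes whose separate sites were strong in every library. MLO12, of the MLO family of membrane proteins known for their part in powdery mildew susceptibility, had a promoter site 228 bp before the transcription start site (TSS) (TAIR10, chr2:16359663-16360405) and an intergenic site 2175 bp before it (chr2:16361478-16362698). Its promoter site stood at percentiles of 88.1 and 99.3 in the WT 0 h lists, 94.1 and 96.9 at WT 2 h, 92.2 and 98.8 in the untreated mutant, and 96.7 and 97.7 in the treated mutant (replicates 1 and 2 in each case). Its distal site stood at 82.1 and 82.5, 88.3 and 90.6, 76.0 and 95.5, and 82.6 and 95.5 in the same order. The mean over the 8 lists was 95.5 ± 3.80 (SD, n = 8) for the promoter site and 86.6 ± 7.01 for the distal one. Both MLO12 sites were thus high in every library, and the groups overlapped at the promoter site.

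WRKY40, which with WRKY18 restrains basal defence and is one of the genes mutated in the triple mutant, held 2 broad regions upstream of its own TSS. The farther one (chr1:30376620-30381041), annotated as intergenic, had percentiles of 88.0 and 99.9 at WT 0 h, 74.8 and 99.9 at WT 2 h, 93.6 and 99.9 in the untreated mutant, and 96.4 and 100 in the treated mutant. The promoter region (chr1:30381228-30384173) had 71.2 and 95.7, 44.5 and 95.5, 53.1 and 98.5, and 98.8 and 99.1. At both regions the replicate 2 list was the higher one in every group, and both regions remained called in all 4 mutant lists. These regions were 4422 and 2946 bp wide after merging, wider than the median of 603 bp over the 377 regions. Their maxima lay 2264 bp apart but their edges only 186 bp, so here the word separate rests on the widths of the peaks.

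WRKY15, a stress-induced member of the family, had its sites at 1195 and 2759 bp upstream, both annotated as intergenic. The nearer site ranged from 68.8 to 88.1 over the 8 lists and the farther site from 71.2 to 97.3. Both WRKY15 sites were in all 8 lists. WRKY53, a regulator of leaf senescence and defence, differed: its promoter site (234 bp upstream) stood at 89.6 to 98.2 in all 8 lists, while its site at 2061 bp upstream, which the files place at the transcript end of the neighbouring AT4G23820, was absent from the replicate 1 lists of WT and mutant at 0 h. In the 6 lists that called it, the second WRKY53 site ranged from 31.5 to 91.1.

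**Figure D1:**
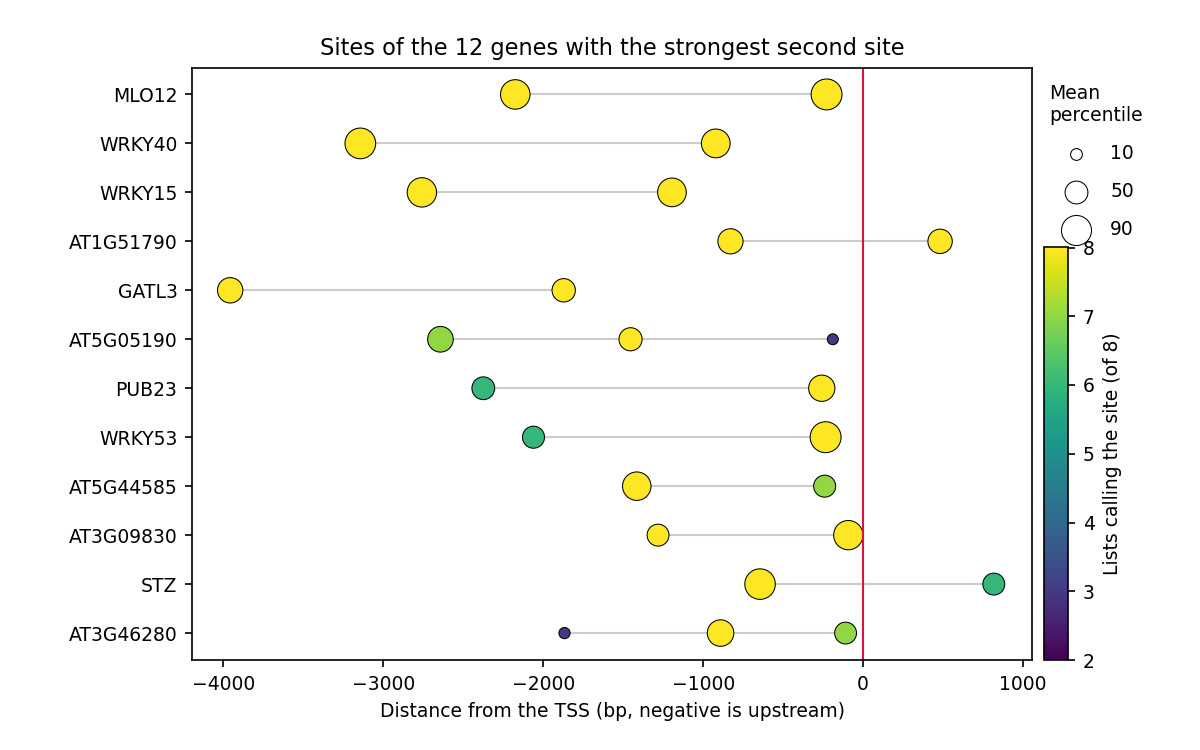
Position of each site of the 12 genes whose second site had the highest mean percentile, as distance from the TSS in bp (negative is upstream); circle size is the mean percentile over 8 lists and colour the number of lists that called the site. MLO12, WRKY40 and WRKY15 carry a pair of large circles, and most second sites lie between 1000 and 3000 bp upstream.

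PUB23, a U-box ubiquitin ligase that dampens pattern-triggered immunity, had a promoter site in all 8 lists (47.7 to 84.7) and an intergenic site 2375 bp upstream in 6. The distal PUB23 site stood at 43.1 in replicate 1 and was absent in replicate 2 at WT 0 h, at 95.7 and 67.7 at WT 2 h, at 68.5 and absent in the untreated mutant, and at 89.4 and 33.3 in the treated mutant. The distal site was called in all 4 of the 2 h lists and in 2 of the 4 lists at 0 h, both of them replicate 1. STZ, also named ZAT10, a zinc finger repressor of stress responses, had a site 644 bp upstream in all 8 lists (86.8 to 98.6). A second site lay 818 bp downstream, in the promoter of AT1G27720 by the files' annotation, and was absent from both replicate 1 lists at 2 h.

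The remaining genes of the strongest-second-site group were GATL3 (galacturonosyltransferase-like 3), AT1G51790, AT5G05190, AT5G44585, AT3G09830 and AT3G46280. GATL3 had the farthest sites of the 12 genes: its sites lay 1872 and 3958 bp upstream and were both in all 8 lists, at 11.4 to 68.5 and 33.8 to 88.7. AT1G51790 had a site 829 bp upstream and another 482 bp downstream in an intron. Its upstream site stood at 77.0 and 76.7 in untreated WT and at 21.1 and 49.6 in treated WT, while its intron site stood at 49.5 and 50.3 at 0 h and at 68.2 and 58.9 at 2 h. In the mutant the upstream site stood at 75.1 and 80.1 at 0 h and 76.5 and 39.7 at 2 h. Both AT1G51790 sites were in all 8 lists.

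**Figure D2:**
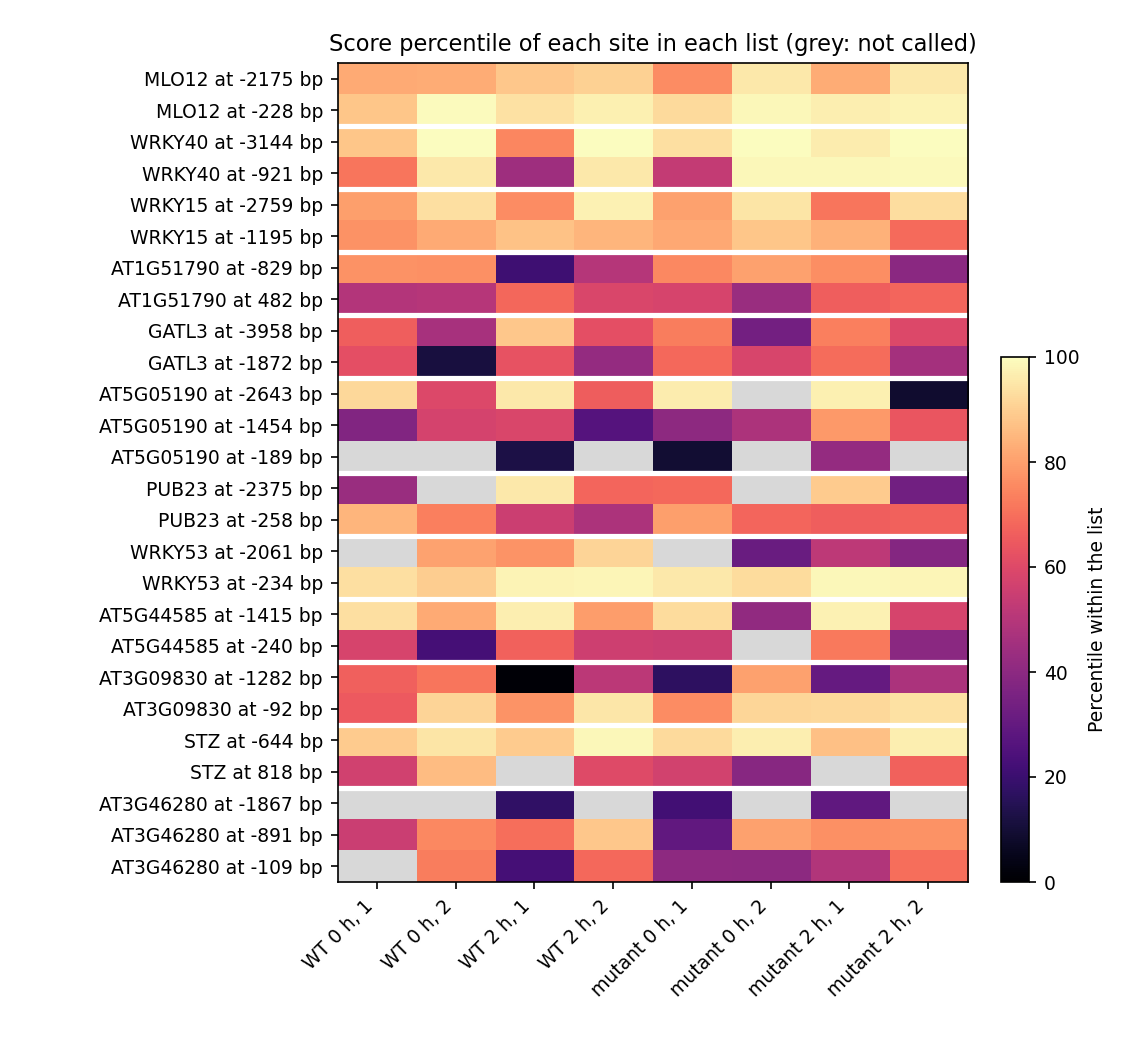
Score percentile within its own list (colour, 0 to 100) of every site of the same 12 genes in each of the 8 lists, labelled by group and replicate; grey marks a list that did not call the site. The sites of MLO12 and WRKY15 are light in all columns, whereas the sites of AT5G05190 and AT3G46280 nearest to and farthest from the TSS, respectively, are grey in 5 of 8 columns.

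Among the genes named for their number of regions, AT5G56960 combined 1 dominant site with 3 weaker ones. Its promoter site was in all 8 lists at 73.3 to 99.4, the site 2477 bp upstream was in 6, and the downstream sites at 2475 and 4053 bp were in 2 and 3 lists, all of them taken at 2 h. PEN2, the atypical myrosinase of pre-invasion defence, had sites 977 and 154 bp upstream in 8 and 7 lists and another 4295 bp downstream in 6. ACS6, an ethylene-forming ACC synthase that immune MAP kinases stabilise, had its strongest site 1785 bp upstream rather than at the promoter. That ACS6 site had percentiles of 95.4 and 39.0 at WT 0 h, 99.9 and 88.5 at WT 2 h, 96.6 and 42.4 in the untreated mutant, and 98.9 and 72.5 in the treated mutant. In both untreated groups replicate 1 was far above replicate 2. The ACS6 promoter site, 199 bp upstream, was in none of the WT 0 h lists and in the 6 others (13.9 to 61.2).

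PP2-B14, an F-box protein gene also named VBF, had its strongest site 2323 bp downstream of the TSS, at a transcript end, in all 8 lists (80.1 to 97.8), and the site 216 bp before its TSS was called in the 2 replicate 1 lists at 2 h, at 12.7 and 5.73. CPC, an R3 MYB factor of root hair patterning, likewise was strongest at a transcript end 1529 bp downstream, at 21.1 to 91.9. AT5G05140, AT1G53625 and AT1G64385 completed the 10 genes named for their number of regions (the 1 with 4, and 9 of the 17 with 3, taken by the mean percentile of their strongest site), and each paired 1 site in 7 or 8 lists with 2 sites in 2 to 4 lists.

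Over the 198 pairs of neighbouring sites the median distance between maxima was 1569 bp (95% order-statistic interval 1406 to 1760), with quartiles of 1027.5 and 2399.5 bp and a range of 272 to 7604 bp. With peaks cut to 150 bp before merging, which splits wide regions, the median was 883 bp. Of these pairs, 48 (24.2%) lay under 1000 bp apart and 130 (65.7%) under 2000 bp. The free stretch between region edges was shorter, with a median of 856.5 bp, and 28 pairs had under 200 bp between them, so for these the word separate rests on the widths of the peaks. The closest were at AT1G17147 (272 bp), FH4 (287 bp), which encodes a formin that nucleates actin, PLL5 (353 bp), AT1G04360 (396 bp), which encodes the RING protein ATL1, and AT1G52200 (419 bp). At FH4 the region 1659 bp upstream was called in the WT 2 h lists alone, at 54.5 and 17.4, and its neighbour 728 bp upstream was called in 7 lists.

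The widest spacing was at AT1G62305, with 7604 bp between its sites. The site 3648 bp downstream of its TSS was called in the replicate 1 lists at 2 h (59.8 in WT and 56.0 in the mutant), and the site 3848 bp upstream in the replicate 2 lists at 2 h (67.7 and 56.6), so no single list held both. LRR XI-23, the receptor kinase RLK7, had sites 2935 bp upstream and 3567 bp downstream, and none of the 0 h lists called either of them. The upstream RLK7 site was called in all 4 lists at 2 h at 7.07 to 37.8, and the downstream site in 3 of them at 22.3 to 57.9. AT5G60680, AT1G21010 and AT1G67328 followed with 6835, 4959 and 4767 bp.

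By position, a gene's set of sites typically joined a promoter site to one outside the promoter. The site nearest to the TSS lay at a median distance of 324 bp and was annotated as promoter in 133 of 179 genes. The 198 other sites lay at a median of 1832 bp, and 93 of them were intergenic, 67 at a transcript end and 15 in a promoter. Separation itself limits how many sites of a gene can fall in its promoter, so this split is partly built in. A promoter site with a site of another class was found in 124 genes (69.3%, Wilson 62.2 to 75.6%): 50 genes paired promoter and transcript end alone, 49 promoter and intergenic, and 14 promoter and intron. Another 26 genes had intergenic sites alone, and 45 in all had no promoter site. In 92 genes all sites were upstream of the TSS, in 83 they lay on both sides, and in 4 all were downstream.

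Set beside the regions of genes with 1 kept region, 148 of 377 (39.3%) against 1700 of 2486 (68.4%) were in a promoter, 124 (32.9%) against 312 (12.6%) were intergenic, 73 (19.4%) against 322 (13.0%) were at a transcript end and 20 (5.31%) against 90 (3.62%) were in an intron. The median distance from the TSS was 1101 bp against 423.5 bp. Requiring 2 or more separate sites per gene limits how many can lie in a promoter, so these differences too are partly built in. The sites nearest the TSS alone were in a promoter in 133 of 179 genes (74.3%), at a median of 324 bp. Taking the nearest of several sites itself favours short distances. Of the 73 transcript-end sites, 35 (47.9%) were annotated to another gene than the one they were assigned to, close to the 160 of 322 (49.7%) of the comparison regions, so for those the target gene is uncertain. In how often they were called, the numbers were 72 (19.1%) against 424 (17.1%) in all 8 lists, 91 (24.1%) against 577 (23.2%) in exactly 2, and a median of 4 lists for each.

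**Figure D3:**
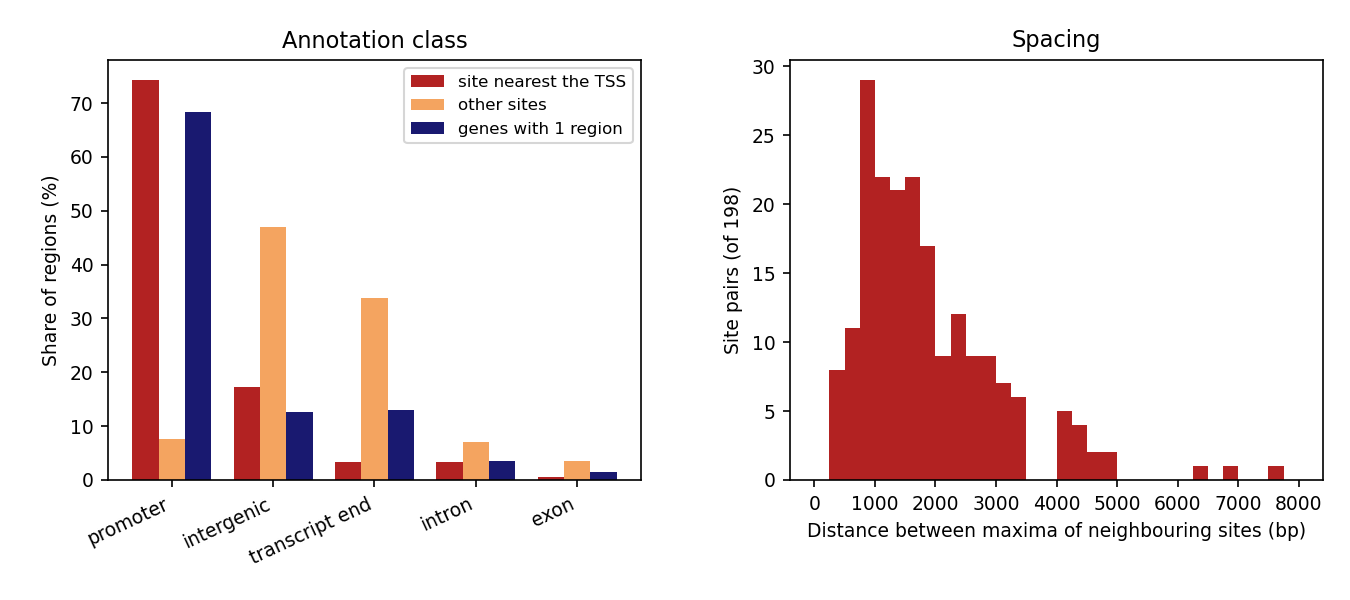
Left, share of regions (%) in each annotation class for the site nearest the TSS of the 179 genes, for their other sites and for regions of genes with 1 region. Right, distance in bp between the maxima of the 198 pairs of neighbouring sites; 130 of the 198 pairs lie under 2000 bp.

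The sites of each gene were ranked by mean percentile, which by itself sets the second below the first. The median of the strongest site's mean percentile was 40.5 (quartiles 22.5 and 62.7), that of the second site 13.9 (8.14 and 22.5), and the median gap between them within a gene was 20.0 (95% order-statistic interval 13.5 to 27.0). Unranked, the median was 21.3 over the 377 regions and 22.3 over the single-site regions. The second site reached 50 or more in 6 genes: MLO12, WRKY40, WRKY15, AT1G51790, GATL3 and AT5G05190. The strongest site was also the nearest to the TSS in 87 of 179 genes.

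The strongest site of a gene was also compared between lists. Where both sides held a call, the strongest site was the same between the replicate 1 and replicate 2 means in 110 of 169 genes (65.1%), between 0 h and 2 h in 128 of 169 (75.7%), and between genotypes in 147 of 179 (82.1%). The comparisons between times and genotypes share replicates, and the one between replicates does not. Most genes had 2 sites, where an order without any agreement would be the same in 1 of 2 genes.

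**Figure D4:**
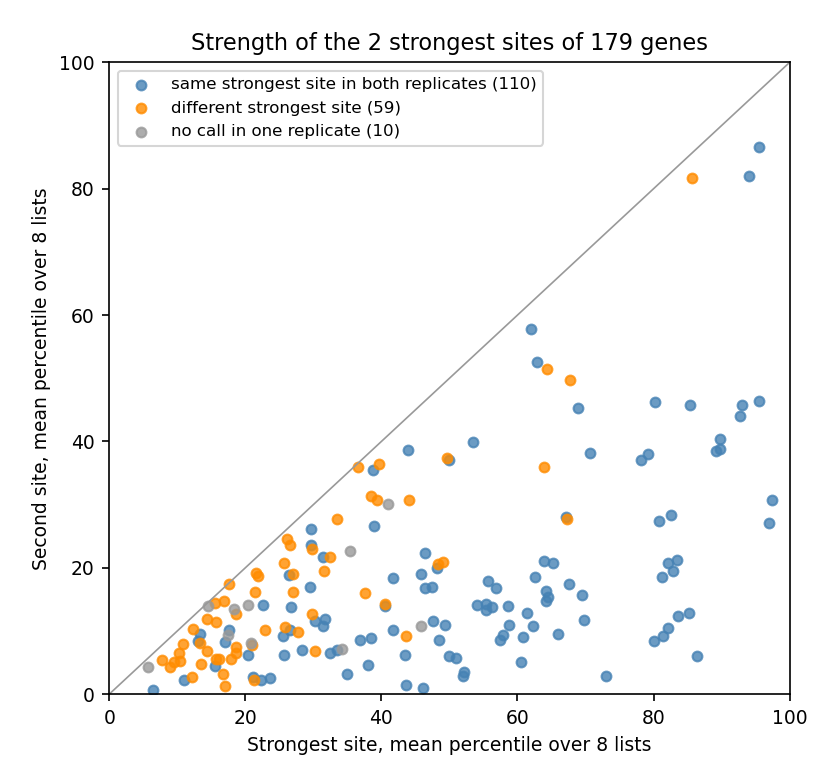
Mean percentile over 8 lists of the strongest site (x) and the second site (y) of each of the 179 genes, coloured by whether both replicates ranked the same site highest; the line marks equality. MLO12, WRKY40 and WRKY15 stand at the upper right, and WRKY15 is among the 59 genes with a different strongest site in the replicates.

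The replicates also differed in which sites they held. Of the 377 regions, 64 (17.0%) were called in replicate 1 lists alone and 62 (16.4%) in replicate 2 lists alone, against 17.0% and 21.8% of the regions of genes with 1 site. With these 126 set aside, 84 of the 179 genes were left with 2 sites, and 13 genes joined a site of replicate 1 alone to a site of replicate 2 alone. WRKY7, of the same subgroup as WRKY11 and WRKY17, had sites in replicate 2 lists alone. Its promoter site was at 91.4, 90.2, 96.0 and 88.7 in the 4 replicate 2 lists and in none of the replicate 1 lists, and its intron site was in 3 replicate 2 lists. ACS2, another ACC synthase gene, had a promoter site in 3 replicate 1 lists (3.79 to 85.8) and an exon site in the 4 replicate 2 lists (3.38 to 53.4), so its sites shared no list. Peaks were wider in the replicate 1 lists, as given above, and the part of width in these differences was not tested.

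More sites of these genes were in the lists at 2 h. Of the 377 regions, 159 and 165 were called at WT 0 h, 264 and 264 at WT 2 h, 180 and 191 in the untreated mutant, and 263 and 264 in the treated mutant, or 46.1% ± 3.85 (SD, n = 4) at 0 h and 70.0% ± 0.133 at 2 h. Genes with 2 or more sites in 1 list numbered 35 and 38, 93 and 93, 42 and 52, and 91 and 92 in the same order, and genes with no site numbered 44 to 56 at 0 h and 14 to 17 at 2 h. The 2 h lists stood apart from the 0 h lists without overlap, and the genotypes overlapped, with 56.5% ± 15.6 in WT and 59.5% ± 12.0 in the mutant.

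The lists were also longer at 2 h, and regions of genes with 1 site were called more often too, 47.0 to 58.0% at 0 h and 59.5 to 68.3% at 2 h. The members' share minus that of the single-site regions was −5.27 ± 2.51 percentage points at 0 h and 6.68 ± 3.74 at 2 h. The change of 11.9 had the same direction in all 4 pairs of the same genotype and replicate (8.26 to 15.4). Calls in these same lists chose both kinds of region, so the agreement of the pairs is no independent support. With every list shortened to the same number of peaks and the members chosen anew, the change in the members' share was 5.65 and the change against single-site regions 8.83 percentage points. The part of list length in the difference was not tested further.

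A measure in lists that the choice did not use was had by choosing genes in 1 replicate and measuring them in the other. This step was added after seeing the data, and in both replicates the lists were longer at 2 h. The choice within 1 replicate can thus itself favour sites called at 2 h, so the values that follow are descriptions. The 90 genes chosen from the replicate 1 lists had 188 regions, of which the replicate 2 lists called 46.8% in untreated WT, 68.6% in treated WT, 49.5% in the untreated mutant and 66.0% in the treated mutant. The 96 genes chosen from the replicate 2 lists had 199 regions, and the replicate 1 lists called 48.2%, 60.8%, 54.3% and 63.8%. Against single-site regions chosen the same way, the change from 0 h to 2 h was 9.74 percentage points in replicate 2 and 7.33 in replicate 1. In both, the 2 h lists lay above the 0 h lists. The permutation test (exact, two-sided) gave p = 0.333, its lowest possible value for 2 lists against 2. It therefore could not decide, and nothing is concluded from it. Of the sites nearest the TSS, 45.5% ± 2.26 were called at 0 h and 70.9% ± 4.05 at 2 h, and of the farther sites 46.6% ± 5.35 and 69.1% ± 3.83 (SD, n = 4 each). The difference between these changes was −2.94 percentage points, with a range of −13.4 to 9.58 over the 4 pairs, so the data do not place either kind ahead.

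**Figure D5:**
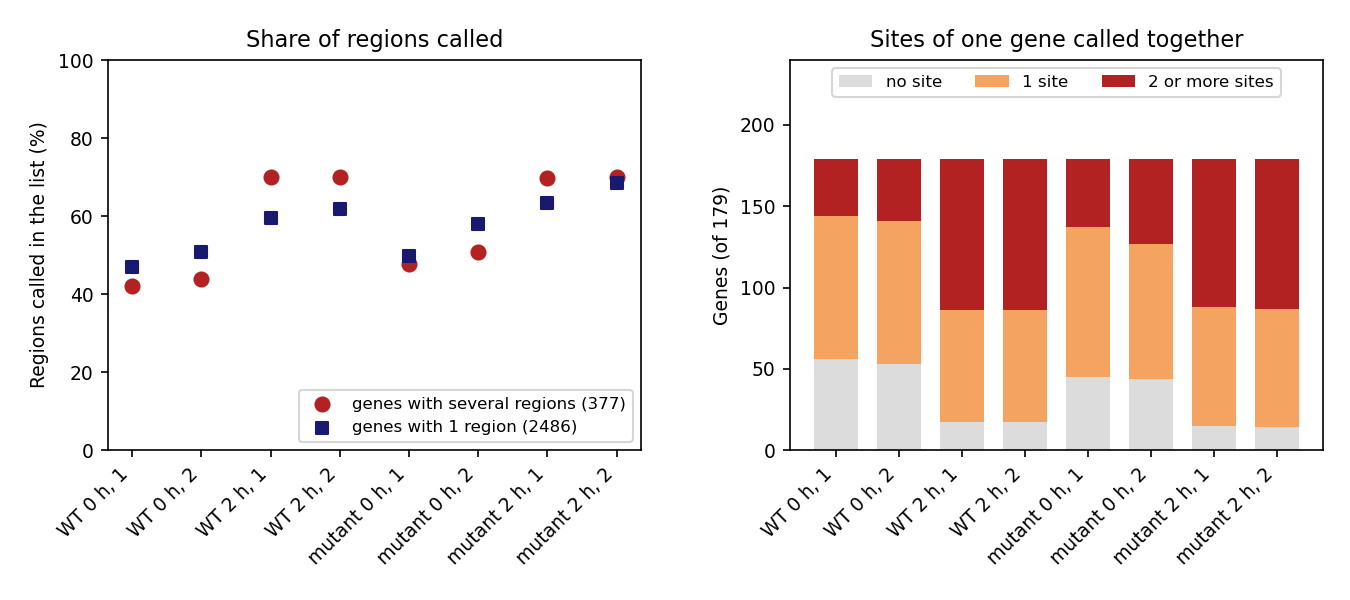
Left, share of regions (%) called in each of the 8 lists for genes with several regions (circles) and for genes with 1 region (squares). Right, number of the 179 genes with no site, 1 site and 2 or more sites in each list; the last class holds 35 to 52 genes at 0 h and 91 to 93 at 2 h.

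Counting only sites called in both lists of a group, 15 genes had 2 or more in untreated WT and 46 in treated WT, and 22 and 43 in the mutant. Of the 46 WT genes, 11 already had 2 such sites at 0 h, 20 had 1 and 15 had none. The 2 h sets of WT and mutant shared 27 genes, which is 58.7% of the WT set and 62.8% of the mutant set. In all 4 groups the condition was met by 9 genes. The longer lists at 2 h enter all of these counts, which are not given at equal list lengths. Single-site regions were also called more often at 2 h (59.5 to 68.3% per list, against 47.0 to 58.0% at 0 h). How many of them were called in both lists of a group is not given here, so no excess is read from these counts. The share of genes with 2 or more sites in a list was 28.2 percentage points higher at 2 h. At equal lengths, with members chosen anew, it was 5.86 points higher.

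Single sites were next compared between groups, a site being gained or lost when called in both lists of one group while absent from both lists of the other, a rule with no p. Such a site can pass the 2-list choice of regions through that group alone. In WT, 51 of the 377 regions (13.5%, Wilson 10.4 to 17.4%) in 43 genes were gained at 2 h. This stood beside 8.87% of all 2863 kept regions, members included, and 8.17% of single-site regions. The interval treats regions as independent and holds no variation between libraries, so it is no test of an excess. Lost in WT were 5 (1.33%), beside 2.38% of all kept regions. In the mutant 21 regions (5.57%) in 20 genes were gained, beside 3.88%, and 1 (0.265%) was lost, beside 0.629%. Whether WT and mutant differ in this was not tested. These counts depend on list length. With all lists cut to the same number of peaks and members chosen anew, there were 230 regions of 111 genes. Of these, WT gained 18 and lost 9 and the mutant gained 1 and lost 8, so that in the mutant losses outnumbered gains. No share over all kept regions is given at these lengths. Whether this is particular to genes with several sites was not tested.

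Most of these genes had a WT call at another site. The choice of genes favours this, as each holds another region called in at least 2 of the 8 lists. Of the 43 WT genes, 10 had another site in all 4 WT lists, 24 had another site in 1 to 3 of them, 8 had another gained site and 1 had no other WT call. Of the 51 gained sites, 20 were the nearest to their TSS, 25 were intergenic, 13 at a transcript end and 10 in a promoter. The mutant called 18 of the 51 in both of its 2 h lists, 23 in 1 and 10 in neither, and 12 met the rule in the mutant as well.

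EXO70H7, an exocyst subunit gene, shows a gain beside a constant site. Its promoter site was in all 8 lists (27.3 at the lowest), and its site 3210 bp upstream was absent from both WT 0 h lists and at 85.6 and 79.6 at WT 2 h, and the mutant replicate 2 lists held it at 3.92 and 54.7 and the replicate 1 lists did not. AT5G65600, the lectin receptor kinase gene LecRK-IX.2, gained both sites: the promoter site stood at 79.9 and 73.8 and the transcript-end site, 2384 bp downstream, at 65.6 and 33.6 in treated WT, and no 0 h list of either genotype held them. At AT1G62301 the site 3280 bp upstream was at 93.0 and 86.5 in treated WT, absent from WT at 0 h and at 41.7 in replicate 1 of the untreated mutant. AT1G14340 and AT5G53110 were the other named gains, at 75.9 and 91.6 and at 88.1 and 76.9 in treated WT.

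The 5 WT losses were at RIN4, CIPK21, PEN2, AT2G06025 and CPC. RIN4, the immune regulator guarded by resistance proteins, lost the site at its TSS (53.3 and 66.1 at 0 h), which the mutant called in both replicate 2 lists, at 74.0 at 0 h and 66.4 at 2 h. A second RIN4 site, 807 bp upstream, was called in 3 replicate 1 lists. CIPK21, a calcium-sensor-dependent kinase gene, lost a transcript-end site 2497 bp downstream that had stood at 28.3 and 61.7. PEN2 lost the downstream site (27.2 and 40.1 at 0 h) and kept its strongest one, at 96.9 and 92.8 at 0 h and 52.1 and 91.9 at 2 h.

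Among the gains in the mutant, AT5G60710 had a site 2386 bp upstream at 97.2 and 52.4 at 2 h, absent from both mutant lists at 0 h, although WT held it in all 4 lists (24.8 to 95.2). At AT3G10930, AT3G48640 and BGLU27, a beta-glucosidase gene, the named site was called in all 4 lists at 2 h and in none at 0 h. The AT3G48640 site, 1090 bp downstream, stood at 38.6 and 94.6 in treated WT and 9.42 and 95.8 in the treated mutant. PMT5, a polyol transporter gene, had a site 2188 bp upstream at 67.0 and 69.2 in treated WT and 60.3 and 19.8 in the treated mutant, and none of the 0 h lists called it.

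Between genotypes few sites met the rule. At 0 h 5 regions were gained in the mutant (1.33%, beside 1.36% of all kept regions) and 4 were lost (1.06%, beside 0.664%). At 2 h 6 were gained (1.59%, beside 2.06%) and 11 were lost (2.92%, beside 2.17%). With at least 3 lists required and members chosen anew, 4 were gained and 0 lost at 2 h, so the 11 rest on the 2-list minimum. NRT1:2, a transporter of nitrate and abscisic acid, was the 1 gene with opposite calls in any of these comparisons: at 0 h its site 2444 bp upstream was called in WT, at 24.1 and 11.4, and its site 4496 bp upstream in the mutant, at 39.6 and 35.2.

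By gene family, counted among genes with a kept region, 28 of 193 members of the listed families (14.5%) had several sites, against 151 of 2472 other genes (6.11%). WRKY genes did so in 7 of 24 cases (29.2%), ACC synthase (ACS) genes in 3 of 4, lipoxygenase (LOX) genes in 2 of 4, ATL RING ligase genes in 2 of 4 and U-box (PUB) genes in 2 of 10. MYB genes did so in 2 of 23 cases, RLP genes in 1 of 15, NAC genes in 1 of 12 and MAP kinase or kinase kinase genes in 1 of 13, and none did among 15 CYP, 5 WAK or WAKL, 5 VQ, 4 JAZ, 4 CML and 4 PROPEP or PEPR genes. The families were chosen with earlier results of these data known. These are counts without a test, and no enrichment is read from them.

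Of the WRKY genes, WRKY11 and WRKY17, related factors known to restrain basal resistance, carried sites on both sides of the TSS. WRKY11 had sites 1691 and 251 bp upstream and 1895 bp downstream in 4, 6 and 5 lists, and the farthest upstream one was in the replicate 2 lists alone (26.5 to 56.3). WRKY17 had an upstream region in all 8 lists (26.6 to 84.8) and an intron site in 4, which WT held in a single list, at 53.3 in replicate 1 at 0 h. WRKY71 had upstream sites 2030 and 1202 bp away in 6 and 2 lists.

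LOX3 and LOX4, 13-lipoxygenases of jasmonate synthesis, differed in strength. The LOX4 site 2001 bp upstream had percentiles of 43.8 and none at WT 0 h, 95.9 and 82.3 at WT 2 h, 62.3 and 16.0 in the untreated mutant, and 92.6 and 49.8 in the treated mutant. One list, WT 0 h replicate 2, did not call this site. LOX3 sites stayed at or under 31.2 in every list. PUB17, a U-box ligase gene of cell death and defence, had a site 1593 bp upstream in 7 lists (46.5 to 86.9) and a promoter site in the 2 replicate 1 lists at 2 h.

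MYB15, a regulator of cold and defence responses, had sites 146, 1261 and 4103 bp upstream in 7, 6 and 3 lists, the farthest at 2 h alone. MYB96, a regulator of cuticular wax, had its stronger site 2834 bp downstream at the transcript end, in all 8 lists (39.0 to 86.1). ATL2, a RING ubiquitin ligase gene, had a site at its TSS in all 8 lists (12.0 to 90.9), higher in replicate 2 in every group. ACS7 had a promoter site in the replicate 2 lists at 2 h and a transcript-end site in 4 lists.

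The other family members with several sites were ERF14, ATAF2, GSTF6, UGT72E1, MPK15, RLP9, CDPK1, CRK5 and CCR4, the last counted through its synonym ATCRK1 and no cysteine-rich kinase by its main name. ERF14 had a promoter-annotated site 903 bp upstream in all 8 lists (73.6 to 96.2), and GSTF6, a glutathione transferase gene, a promoter site in all 8 (13.0 to 82.4). CCR4 had a promoter site and a site 2560 bp downstream, each in 7 lists. CRK5 lay at the other end, with no percentile above 22.1 at either site.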

How the data were processed

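Peak lists of 8 anti-WRKY immunoprecipitations were used. Per the labels' protocols, 2 g of seedlings gave each precipitate, the DNA was linearly amplified before library construction, and single-end reads of 100 bp were sequenced. Per the submitters' processing notes, the build was TAIR10 and the tools included HOMER, SAMtools 0.1.18, Bowtie2 2.0.5, cutadapt 1.2.1 and FastQC 0.11.2. For the peak caller and aligner settings the sources used here give nothing. Amplification can shift the balance between fragments. The score of a peak is the authors' own deposited value, used only as a percentile within its list. The annotation class, TSS distance and nearest promoter are also theirs, and TSS distances run from the peak centre. Input libraries and read counts were not analysed here.

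Merging and choice of genes were done in Python 3.11.15 with pandas 2.3.3, NumPy 2.4.6 and SciPy 1.17.1, and the steps were checked on simulated lists. Symbols came from RefSeq (TAIR10.1, names only), where 177 of 179 genes were found. Members, families and rules were chosen with earlier results of these data known. Named were 10 genes by number of regions (ties by the mean percentile of the strongest site), the 12 with the highest second site, the 5 shortest and 5 longest spacings, up to 5 gains or losses per direction, family members, opposite calls and genes at the threshold. The design text gives each of 2 biological replicates all 4 conditions, so equal numbers were treated as pairs, and the deviations of same-numbered lists correlated between groups (0.383 to 0.603 over 2863 regions). Values per list were compared by exact two-sided permutation tests. Those on all 8 lists stand with the sensitivity results, since calls in the same lists chose the members. The alternatives were other merging, thresholds, list lengths, TSS windows, left-out lists and the replicate block; choice in 1 replicate with measurement in the other, annotation strata and TSS-nearest sites were added after seeing the data. A planned W-box search was not run.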

Additional observations from a re-analysis of the deposited data

Results flagged for a closer look

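Among the 4 lists taken at 2 h, the mutant replicate 1 list called 69.8% of the 377 regions, or 1.47 sites per gene, below the other 3 lists. The gap is 1 region (263 against 264), and chance flags about 1 in 20 such groups of 4.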

How the results depend on the processing

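Over all 8 lists, the share of regions called was 23.9 percentage points higher at 2 h than at 0 h, sites per gene 0.503 higher (the same information), genes with 2 or more sites in a list 28.2 points higher, and the excess over single-site regions 11.9 points higher. Each had an exact permutation p of 0.0286, the smallest that 4 lists against 4 allow. The Benjamini-Hochberg adjusted value was 0.0357 over the 5 planned tests and 0.05, equal to the threshold, with the 2 tests added later. As calls in these lists chose the members and the 2 h lists were longer, these p-values are no independent support. Nothing is concluded from them. With the replicate block these values of 23.9, 0.503, 28.2 and 11.9 were the same, up in 4 of 4 pairs, with an exact p of 0.125, the smallest for 4 pairs. Mutant minus WT was 3.05 points (exact p = 0.657) for the share and −2.02 (0.714) for the excess.

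With equal list lengths the differences by time were 5.65, 0.117, 5.86 and 8.83 (exact p = 0.0571, 0.0571, 0.2 and 0.0571). For peaks above the median score, the excess was 6.68 points higher at 2 h than at 0 h (exact p = 0.2). Measured in the replicate not used for the choice, the share was higher at 2 h by 19.1 (replicate 2) and 11.1 points and the excess by 9.74 and 7.33 (exact p = 0.333 each). Within promoter sites and within other classes the excess was 12.5 and 8.35 points higher at 2 h than at 0 h. Leaving out 1 list gave 22.3 to 25.5, 0.469 to 0.538, 27.4 to 31.3 and 11.1 to 13.3, each with the smallest exact p of 0.0571. The genotype differences changed sign: the excess was 0.00914 with at least 3 lists, 0.0287 with both lists of a group, 0.551 without WT 2 h replicate 1 and 0.574 without mutant 0 h replicate 2; the share was −2.54 above the median score, −1.74 at equal lengths, −2.21 and −1.36 without WT 0 h replicate 1 or 2, and −0.185 without mutant 2 h replicate 2. Over left-out lists they ran from −4.93 to 0.574 and −2.21 to 7.62, and farther minus nearest sites from −7.34 to −0.864.

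The number of genes, their regions and the median spacing depended on the rule. They were 281, 614 and 883 bp with peaks cut to 150 bp, 122, 247 and 2060 bp with regions under 500 bp apart joined, and 104 and 217 genes and regions with at least 3 lists. They were 74, 155 and 1853 bp with both lists of a group, 64 and 128 above the median score, 111 and 230 at equal lengths, and 63, 128 and 987 bp in a TSS window (2000 bp before, 500 bp after). Genes with a promoter site and another class made up 48.0% with cut peaks, 56.2% above the median score and 76.2% in the TSS window. Leaving out 1 list gave 141 to 179 genes, 296 to 377 regions, 1555 to 1618 bp, 66.9 to 70.9% and a percentile gap of 17.2 to 24.0.

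Site gains and losses that moved by over 1.5 times were as follows. With cut peaks WT lost 10, the mutant lost 7, and mutant against WT gave 11 higher at 0 h, 11 higher at 2 h and 23 lower at 2 h. Sites lower in the mutant at 2 h were 6 with joined regions, 0 with at least 3 lists and 6 with both lists of a group, where WT gained 33 and lost 2 and the mutant lost 0. Above the median score WT gained 14 and lost 3, the mutant gained 5, and mutant against WT gave 1 higher and 0 lower at 0 h and 1 higher and 7 lower at 2 h. At equal lengths WT gained 18 and lost 9, the mutant gained 1 and lost 8, and mutant against WT gave 3 higher at each time. In the TSS window WT gained 14 and lost 2, the mutant gained 5, and mutant against WT gave 2 higher and 1 lower at 0 h and 2 higher and 5 lower at 2 h. Leaving out 1 list leaves 1 list in a group, which relaxes the rule: WT gains ran from 46 to 93 and losses from 5 to 15, mutant gains from 19 to 76 and losses from 1 to 12, higher in the mutant from 4 to 34 at 0 h and 6 to 23 at 2 h, and lower from 3 to 18 and 3 to 29. The cause of the other changes was not tested. W-box shares were not run, since no genome of the build was at hand, and unknown depth limits every absent call.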
